A study of Mus musculus with 6 samples.

Results

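The genes described here are 33 that act in the making and storage of fat in a cell: enzymes of fatty acid synthesis, desaturation, elongation and activation, acyltransferases of triglyceride assembly, lipases, and coat proteins of lipid droplets. They were chosen by name from textbook steps of these pathways, and each of the 33 was found among the 53379 gene identifiers of the count tables. Their transcripts were counted by RNA-seq in Min6, an insulinoma line from mouse with many traits of pancreatic beta cells. Cells of both groups were at passage 28, had been transduced with the CRISPR vector lentiCRISPR v2, and were harvested on day 8 after 30 hours of glucolipotoxic conditions (excess glucose and fatty acid). In 3 libraries the gRNA targeted Rosa26, the negative control, and in the other 3 it targeted JunD, an AP-1 transcription factor. The labels do not say whether the cells were pools or clones, nor whether each replicate had its own transduction, so the p-values rest on a spread among libraries that may be technical. All libraries carry the vector and the stress, so nothing here compares stressed with unstressed cells.

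Cells build fatty acids from citrate that leaves the mitochondria: ATP citrate lyase (Acly) turns it into acetyl-CoA, acetyl-CoA carboxylase makes malonyl-CoA, and fatty acid synthase (Fasn) joins these units into palmitate. Desaturases and elongases reshape the chain, and acyl-CoA synthetases activate it. The steps of triglyceride assembly end with Dgat1 or Dgat2, which add the last acyl chain. In beta cells, malonyl-CoA also restrains the burning of fatty acids when glucose is high, and storage as triglyceride is known as a buffer against free fatty acid.

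Libraries held 41071566 to 50024931 counts. Jund stood at 39.3, 34.5 and 30.4 CPM (the count scaled to a library total of 1e6) with the Rosa26 gRNA and at 22.6, 25.1 and 26.9 CPM with the JunD gRNA. Rosa26 gRNA replicate 1 stood apart: the first principal component, with 45.8% of the variance, put it at -62.1 and the other 5 libraries between 6.09 and 22.5. Fold changes and tests are therefore given with all 6 libraries and with the 5 that remain without it, and overlap refers to all 6 unless 5 are named. The identity of the cells was checked on markers. All 10 beta cell markers were above 27 CPM in every library, while all 8 adipocyte markers were under 1 CPM, with a summed level of 0.30 to 1.22 CPM in the Rosa26 gRNA libraries and 0.311 to 0.706 CPM in the JunD gRNA libraries. Of 8 macrophage markers 6 were under 1 CPM, with Adgre1 and C1qb at 0 counts in all libraries. The 8 summed to 33.3 to 45.5 CPM with the Rosa26 gRNA and 47.8 to 53.4 CPM with the JunD gRNA. Of 7 fibroblast markers 4 were under 1 CPM, and the 7 summed to 2.03 to 3.96 and 2.56 to 4.13 CPM. Of 7 hepatocyte markers 4 were under 1 CPM, and the 7 summed to 2138, 4070 and 4111 CPM against 3975, 4008 and 4080 CPM. Of 7 markers of other islet endocrine cells 3 were under 1 CPM, with sums of 541.9, 715.4 and 728.1 CPM against 707.0, 707.9 and 678.8 CPM. The hepatocyte and the islet sums were both lowest in Rosa26 gRNA replicate 1. The lipid genes described below were thus measured in cells with next to no fat cell transcripts. In bulk RNA, fewer cells of a type and less RNA per cell cannot be told apart.

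Acly and Scd2, of fatty acid synthesis and desaturation, had by far the highest levels of the 33 genes, while members of synthesis and of lipolysis both reached into the lower part of the order. Levels were compared between genes as CPM per kb of merged exons. Acly came first at 572 ± 20.5 (SD over 6 libraries, here and below), followed by Scd2, a stearoyl-CoA desaturase, at 422.5 ± 20.1. Neither overlapped its neighbour in the order. Fads1 and Fads2, desaturases of polyunsaturated fatty acids, followed at 119.6 ± 10.1 and 112 ± 7.16, then Srebf1, the gene of the lipogenic transcription factor SREBP1, at 89.4 ± 11.97, and Scd1 at 84.7 ± 4.46; these 4 overlapped from each to the next. The elongase Elovl5 at 59.4 ± 4.43 and Fasn at 56.1 ± 1.90 overlapped each other and stood clear of the acyl-CoA synthetase Acsl5 at 45.9 ± 2.69. Agpat1 (36.3 ± 4.61), Acsl4 (21.2 ± 4.02), Agpat3 (20.7 ± 0.960) and Elovl1 (19.8 ± 2.60) again overlapped from each to the next, above a run from malic enzyme Me1 (13.6 ± 0.656) through Dgat2 (12.4 ± 1.13), Elovl6 (12.3 ± 2.02), Dgat1 (11.2 ± 0.576) and Pnpla2 (11.04 ± 1.31) to Acsl3 (8.40 ± 0.956).

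The lower part of the order began with Plin2, the droplet coat perilipin 2, at 6.64 ± 0.584 CPM per kb, and the phosphatidate phosphatases Lpin1 and Lpin2 at 5.75 ± 0.199 and 5.09 ± 0.360. The glycerol-phosphate acyltransferase Gpam, Agpat2, the acetyl-CoA synthetase Acss2, the lipase co-activator Abhd5, Acsl1 and Acaca lay between 3.55 and 2.09, each overlapping the next. Acaca encodes the cytosolic acetyl-CoA carboxylase. It had 2.09 CPM per kb of merged exons and 3.76 per kb of its longest transcript. By either length it was in place 28, while Gpam moved from 23 to 27 and Dgat1 from 17 to 14. Lipe, hormone-sensitive lipase, followed at 1.21 ± 0.0772, and Acacb, the mitochondrial carboxylase, at 0.272 ± 0.0737. G0s2, an inhibitor of the lipase encoded by Pnpla2, had only 1, 4 and 6 counts in the Rosa26 gRNA libraries and 2, 7 and 3 in the JunD gRNA libraries. The droplet coat gene Plin3 had 10, 11 and 8 counts against 5, 11 and 12. Mgll, monoglyceride lipase, had 6, 0 and 0 against 0, 2 and 2, where 3 counts correspond to 0.0600 to 0.0730 CPM. These last 3 genes were too low for any statement on a difference.

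**Figure D1:**
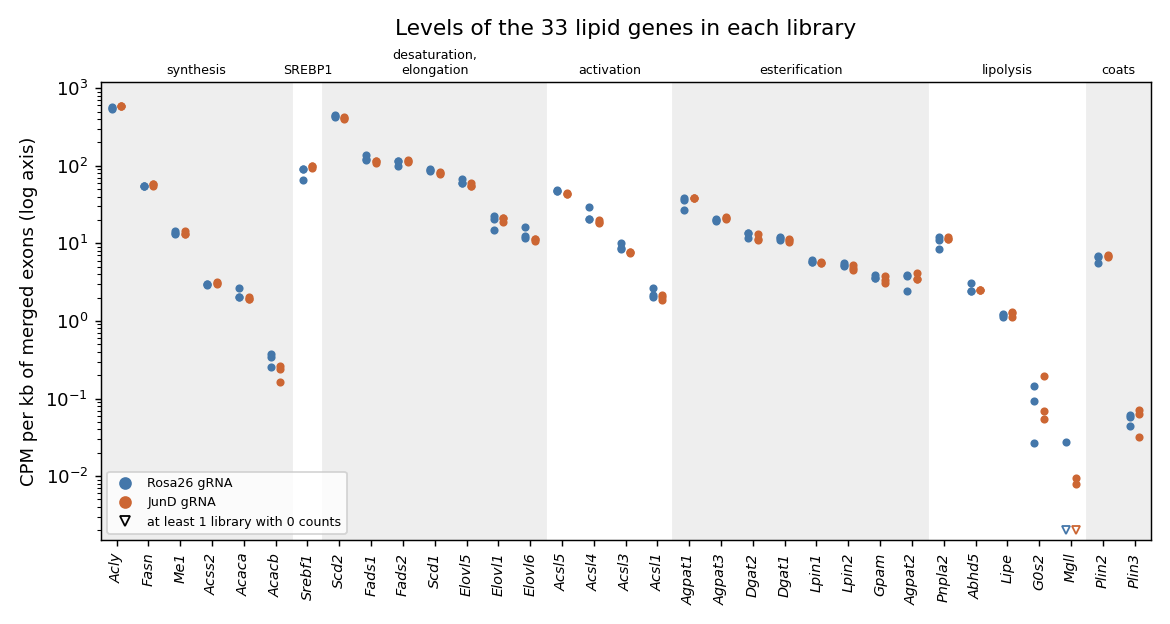
Levels of the 33 genes (CPM per kb of merged exons, log axis), grouped by role, with 1 point for each library and open triangles for libraries at 0 counts. Acly and Scd2 stand above all others in every library, the carboxylase Acacb is far below Acaca, and G0s2, Plin3 and Mgll are at the bottom.

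The 33 genes together took 0.938%, 0.916% and 0.920% of all counts in the Rosa26 gRNA libraries and 0.935%, 0.928% and 0.904% in the JunD gRNA libraries. These shares overlapped. Acly and Scd2 alone gave 56.8% to 58.5% of the counts of the 33 genes. Scd1 and Scd2 are close paralogs, and how multi-mapped reads were treated is not given in the sources used, so the split between them is uncertain.

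Few differences between the groups passed a test. With all 6 libraries, 0 of the 31 genes that passed the filter on low counts (all but G0s2 and Mgll) were called at an adjusted p under 0.05 by edgeR, as were 0 of 17767 genes tested (0%). DESeq2 and limma-voom also called 0 of the lipid genes. At an unadjusted p under 0.05 edgeR gave 3, Acacb, Elovl6 and Acsl3, against 11.9% of all genes. Without Rosa26 gRNA replicate 1, 2 of 31 were called, Acly higher and Acsl5 lower, against 523 of 18296 genes (2.86%), of which 1.45% were higher and 1.4% lower. So few calls say nothing of the lipid genes as a group. The groups did not overlap in CPM over 6 libraries for 6 genes that were higher with the JunD gRNA (Acly, Fasn, Acss2, Srebf1, Agpat1 and Agpat3), against 11.6% of all genes. For another 6 they did not overlap in the other direction (Scd1, Elovl6, Fads1, Acsl3, Acsl4 and Acsl5), against 12.8% of all genes. Over 5 libraries these counts were 7, Abhd5 being added (15.7% of all genes), and 8, Dgat1 and Dgat2 being added (17.3% of all genes). The median log2 fold change of the 31 was -0.06 in both fits, beside -0.0064 and -0.0030 for all genes tested. Among the 27 genes with at least 10 CPM, no log2 fold change went beyond 0.28 in size with 6 libraries or 0.19 with 5. Among the 31, the one farthest from 0 was that of the scarce Acacb, at -0.52 ± 0.23 with 6 libraries (adjusted p = 0.417) and -0.42 ± 0.22 with 5 (adjusted p = 0.363).

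**Figure D2:**
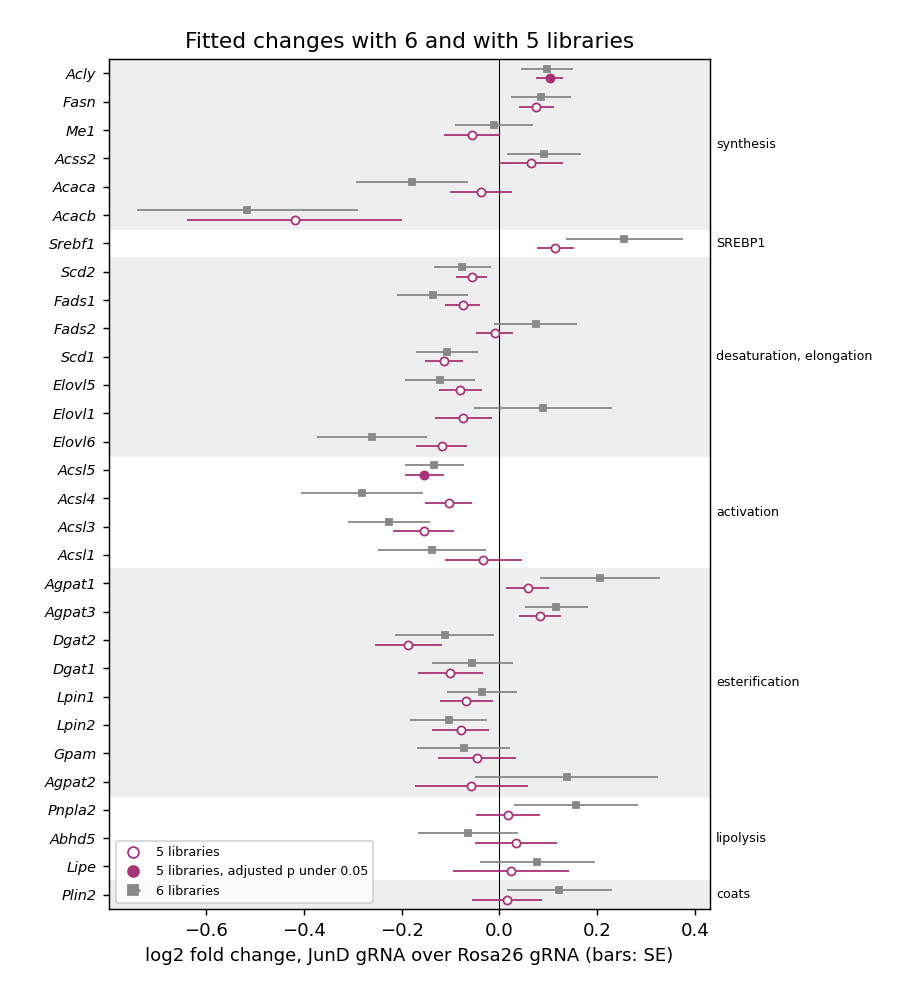
Fitted log2 fold changes (JunD gRNA over Rosa26 gRNA, bars are SE) of the 30 genes above 1 CPM with 6 libraries (squares) and 5 (circles, filled where the adjusted p is under 0.05). Acly and Acsl5 are the filled circles, and the squares of Srebf1, Agpat1, Acsl4 and Elovl6 lie farther from 0 than their circles.

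Among the 6 synthesis genes, Acly rose with 5 libraries and the other 5 were not called in either fit. Acly (chr11:100476353-100528000, minus strand, 30 merged exons, GRCm38) stood at 3007, 2945 and 2854 CPM with the Rosa26 gRNA and at 3088, 3156 and 3070 CPM with the JunD gRNA. All JunD gRNA libraries were above all Rosa26 gRNA libraries, by 1.06-fold on average. Its log2 fold change was 0.10 ± 0.05 (SE) with 6 libraries (adjusted p = 0.443) and 0.10 ± 0.03 with 5 (adjusted p = 0.0441). The call was lost when any of 4 libraries was left out of the 5, with adjusted p of 0.0588 without JunD gRNA replicate 1, 0.149 without JunD gRNA replicate 2, 0.167 without Rosa26 gRNA replicate 2 and 0.601 without Rosa26 gRNA replicate 3. Over all settings run on 5 libraries the adjusted p ran from 0.00176 to 0.601 and the log2 fold change from 0.09 to 0.13.

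Fasn (chr11:120805846-120824547, minus strand), the synthase itself, stood at 600, 597.5 and 599.3 CPM against 635, 645.1 and 605.4 CPM. The 3 control libraries lay within 3 CPM of each other, and the lowest JunD gRNA library was just above them. The log2 fold change was 0.09 ± 0.06 with 6 libraries (adjusted p = 0.521) and 0.08 ± 0.04 with 5 (adjusted p = 0.302), and passed the threshold only without JunD gRNA replicate 3 (adjusted p = 0.0380, 4 libraries). Acss2, which makes acetyl-CoA from acetate, had 29.2, 30.3 and 30.0 CPM against 32.5, 30.9 and 30.9 CPM, apart by less than 1 CPM at the nearest libraries, with a log2 fold change of 0.09 ± 0.08 (6 libraries, adjusted p = 0.572) and 0.07 ± 0.07 (5 libraries, adjusted p = 0.707). Its exons share 197 bases with the antisense gene Ggt7 and 395 with Gss, and the sources used here give no strand setting.

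Acaca, the step that commits acetyl-CoA to fat, had 46.0, 34.3 and 34.3 CPM against 34.4, 33.2 and 32.3 CPM. Only Rosa26 gRNA replicate 1 was apart, and the log2 fold change went from -0.18 ± 0.11 (adjusted p = 0.480) to -0.04 ± 0.06 (adjusted p = 0.844) without it. Me1, a source of NADPH for synthesis, overlapped between groups, at 50.4 to 55.8 CPM against 50.1 to 55.2 CPM. Acacb had 3.57, 3.28 and 2.45 CPM against 2.51, 2.34 and 1.59 CPM, which also overlapped and came from only 79 to 164 counts. The 6 synthesis genes summed to 3576 to 3736 CPM with the Rosa26 gRNA and to 3790 to 3922 CPM with the JunD gRNA, sums that did not overlap and that consist mostly of Acly.

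Srebf1 (chr11:60199089-60222581, minus strand), whose product switches on many of these genes, stood at 373.3, 504.4 and 506.6 CPM against 552.5, 527.8 and 556.3 CPM. The groups did not overlap, and Rosa26 gRNA replicate 1 was far below every other library. The log2 fold change was 0.26 ± 0.12 with 6 libraries (adjusted p = 0.419) and 0.11 ± 0.04 with 5 (adjusted p = 0.0966). On 5 libraries it was called by DESeq2 (adjusted p = 0.0484), by voom with sample weights (0.0367) and without the count filter (0.0384). Correcting for GC content and for the length of transcripts took it to 0.13 with 6 libraries (adjusted p = 0.544) and 0.04 with 5 (adjusted p = 0.646). Its exons share 109 bases with the antisense gene Rai1.

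Each of the 7 genes of desaturation and elongation had a log2 fold change below 0 with 5 libraries (50.8% of all genes did), and 0 of the 7 were called in either fit. With 6 libraries 5 of 7 were below 0, Fads2 and Elovl1 being the exceptions. The medians were -0.08 with 5 libraries and -0.11 with 6. Scd1 (chr19:44394455-44407879, minus strand), which places a double bond in stearate and palmitate, stood at 435.8, 422.1 and 438.5 CPM against 409.6, 397.1 and 383.4 CPM. All JunD gRNA libraries were below all controls, with a log2 fold change of -0.11 ± 0.06 (6 libraries, adjusted p = 0.454) and -0.11 ± 0.04 (5 libraries, adjusted p = 0.120). Its more abundant paralog Scd2 (chr19:44293674-44306864, plus strand) had 2481, 2296 and 2369 CPM against 2305, 2242 and 2158 CPM. These overlapped through JunD gRNA replicate 1, and the log2 fold change was -0.08 ± 0.06 (adjusted p = 0.548) and -0.06 ± 0.03 (adjusted p = 0.394). The ratio of Scd2 to Scd1 in CPM was 5.69, 5.44 and 5.40 against 5.63, 5.65 and 5.63. The groups overlapped in it through Rosa26 gRNA replicate 1, and did not over 5 libraries.

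Fads1 had 666.7, 566.9 and 584.4 CPM against 554.8, 552.4 and 527.3 CPM, and the elongase Elovl6, which extends palmitate to stearate, had 104.3, 75.7 and 79.4 CPM against 73.4, 72.3 and 68.0 CPM. In both, the groups did not overlap and the highest library was Rosa26 gRNA replicate 1. Without that library the log2 fold change of Fads1 went from -0.14 ± 0.07 (adjusted p = 0.434) to -0.08 ± 0.04 (adjusted p = 0.312), and that of Elovl6 from -0.26 ± 0.11 (adjusted p = 0.417) to -0.12 ± 0.05 (adjusted p = 0.256). Corrected for GC content and length, Elovl6 was at -0.10 with 6 libraries and -0.06 with 5. Fads2 (323 to 382.9 CPM against 365.3 to 386 CPM), Elovl1 (40.7 to 60.5 against 51.6 to 57.4) and Elovl5 (208.9 to 235.2 against 192.5 to 211.6) overlapped between the groups. The 7 genes summed to 4004 to 4286 CPM with the Rosa26 gRNA and to 3759 to 3997 CPM with the JunD gRNA, sums made up mostly of Scd2. They were apart by less than 10 CPM, and overlapped when scaled by TMM factors (3996 to 4202 against 3798 to 4023).

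The 4 acyl-CoA synthetases, which load free fatty acids onto coenzyme A, all had log2 fold changes below 0 in both fits, with medians of -0.18 and -0.13. Acsl5 fell with 5 libraries and the other 3 were not called in either fit. Acsl5 (chr19:55251938-55297720, plus strand, 23 merged exons) stood at 231.5, 232.9 and 239.3 CPM against 212, 215.2 and 207.5 CPM. The groups were apart, the JunD gRNA mean being 0.902 of the Rosa26 gRNA mean, and here Rosa26 gRNA replicate 1 lay with the other controls. The log2 fold change was -0.13 ± 0.06 with 6 libraries (adjusted p = 0.419) and -0.15 ± 0.04 with 5 (adjusted p = 0.0370). The call was lost without JunD gRNA replicate 1 (0.0653), JunD gRNA replicate 2 (0.0716), Rosa26 gRNA replicate 2 (0.214) or Rosa26 gRNA replicate 3 (0.601), the log2 fold change staying between -0.17 and -0.13 in every setting run on 5 libraries, where adjusted p ran from 0.00867 to 0.601. Its exons share 404 bases with the antisense gene Zdhhc6, which had 2540, 2968 and 2860 counts against 2370, 2315 and 2732.

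Acsl4, which prefers arachidonate, had 157.6, 110.5 and 110.6 CPM against 102.3, 107.3 and 98.2 CPM. The groups did not overlap, with Rosa26 gRNA replicate 1 far above the rest. Its log2 fold change was -0.28 ± 0.13 with 6 libraries (adjusted p = 0.417) and -0.10 ± 0.05 with 5 (adjusted p = 0.275). Acsl3, a synthetase found on the endoplasmic reticulum and droplets, had 44.1, 37.98 and 36.96 CPM against 33.1, 33.8 and 33.7 CPM, all JunD gRNA libraries being below all controls. Its log2 fold change was -0.23 ± 0.08 (adjusted p = 0.417) and -0.16 ± 0.06 (adjusted p = 0.198), and it shares 244 exonic bases with Utp14b on the same strand. Acsl1 overlapped between groups, at 21.3 to 27.5 CPM against 19.6 to 22.8 CPM. Summed, the synthetases gave 402.7 to 460.7 CPM with the Rosa26 gRNA and 359 to 379.1 CPM with the JunD gRNA, without overlap. With the same correction the median of the 4 was -0.06 in both fits, and on 5 libraries 3 of the 4 were below 0. Acsl4 was then at -0.02 (6 libraries) and -0.01 (5 libraries), and Acsl3 at -0.10 in both.

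**Figure D3:**
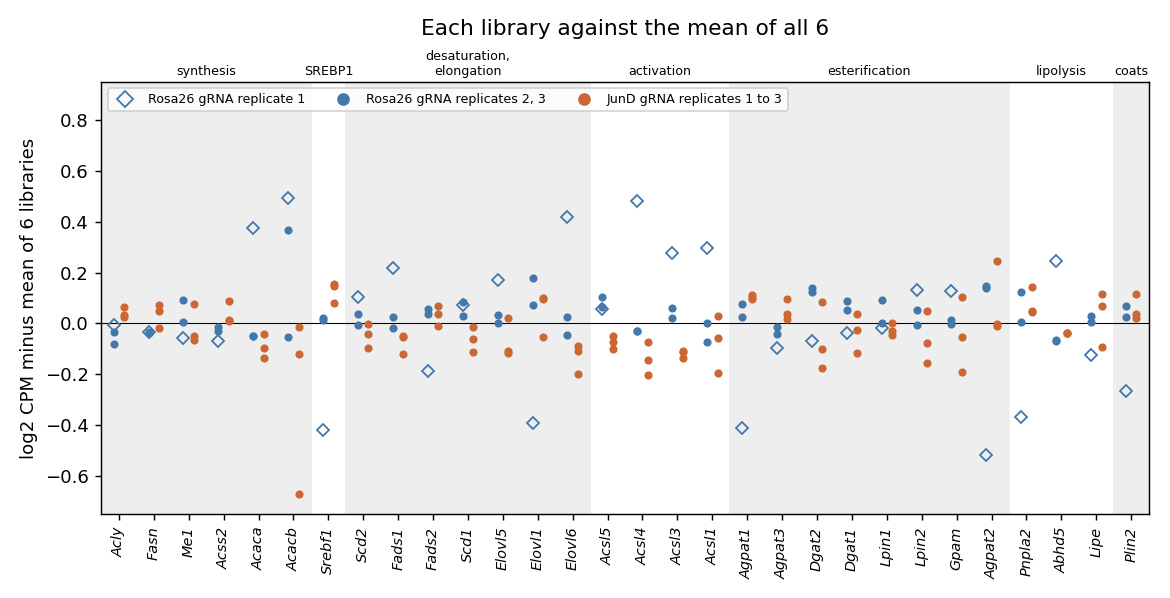
Deviation of each library from the mean of all 6 (log2 CPM) for the 30 genes above 1 CPM, grouped by role, with open diamonds for Rosa26 gRNA replicate 1. For Acly and Acsl5 the diamond lies with the other controls, whereas for Srebf1, Agpat1, Acsl4 and Elovl6 it lies far outside them.

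The 8 genes of triglyceride assembly had 0 calls in either fit, and their summed level overlapped, at 455.3 to 504.7 CPM against 490.5 to 507.7 CPM. Agpat1, which adds the middle acyl chain to make phosphatidate, had 81.3, 114 and 110.2 CPM against 117, 116.4 and 115.6 CPM. Rosa26 gRNA replicate 1 was again apart, and the log2 fold change went from 0.21 ± 0.12 (adjusted p = 0.461) to 0.06 ± 0.04 (adjusted p = 0.585) without it. Agpat3, of the same family, had 150.3, 159.2 and 156.2 CPM against 165.1, 162.5 and 172 CPM, which did not overlap, with a log2 fold change of 0.12 ± 0.07 (adjusted p = 0.445) and 0.08 ± 0.04 (adjusted p = 0.360). Agpat2, also of this family, was lowest in Rosa26 gRNA replicate 1 (5.18 CPM), with 7.38 to 8.80 CPM elsewhere. Gpam, Lpin1 and Lpin2 overlapped between the groups.

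Dgat1 and Dgat2 encode unrelated enzymes for the last step. Dgat2 had 36.4, 42.0 and 41.6 CPM against 40.4, 33.8 and 35.6 CPM. The groups overlapped over 6 libraries, and did not over 5. Its log2 fold change was -0.11 ± 0.10 with 6 libraries (adjusted p = 0.596) and -0.19 ± 0.07 with 5 (adjusted p = 0.157). Under the GC and length correction on 5 libraries it was -0.25 and passed the threshold (adjusted p = 0.0315), and it was called in 4 of 15 settings run on 5 libraries. Over these the log2 fold change ran from -0.33 to -0.13 and the adjusted p from 0.000114 to 0.647, one of the calls coming without JunD gRNA replicate 1 (adjusted p = 0.0345). Dgat1 had 33.5, 36.5 and 35.6 CPM against 33.7, 31.7 and 35.2 CPM, with a log2 fold change of -0.06 ± 0.08 (adjusted p = 0.759) and -0.10 ± 0.07 (adjusted p = 0.503). It too overlapped over 6 libraries and not over 5, and the correction gave -0.22 and -0.16 (adjusted p = 0.361 and 0.166).

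Lipases and droplet coats gave no call. Pnpla2, adipose triglyceride lipase, had 25.7, 36.1 and 33.3 CPM against 34.2, 34.2 and 36.6 CPM. Its log2 fold change of 0.16 ± 0.13 with 6 libraries (adjusted p = 0.563) shrank to 0.02 ± 0.07 with 5 (adjusted p = 0.938), the low control being Rosa26 gRNA replicate 1. Plin2, the coat that tracks droplet load in many cells, had 19.3, 24.4 and 23.7 CPM against 25.2, 23.9 and 23.6 CPM. These overlapped, and its log2 fold change went likewise from 0.12 ± 0.11 (adjusted p = 0.592) to 0.02 ± 0.07 (adjusted p = 0.954). Abhd5 (14.6 to 18.2 CPM against 14.93 to 14.95 CPM) and Lipe (6.52 to 7.23 against 6.65 to 7.70) overlapped as well, Abhd5 through Rosa26 gRNA replicate 1 alone.

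Rosa26 gRNA replicate 1 stood apart in the lipid genes too, in both directions. Over the 30 genes above 1 CPM its median distance from the mean of the other 2 control libraries was 0.207 on the log2 scale, against 0.0393 between those 2. It was below that mean for 15 genes and above it for 15. Its deviation went with GC content across these genes, with Pearson's r of -0.69 and Spearman's rho of -0.69 over 30 genes of the same libraries, given as a description. The GC contents ran from 39.0% for Acsl4, where it was highest relative to the other controls, to 59.0% for Agpat1. Beside the corrected values quoted above, the correction took Fasn to 0.04 in both fits, Scd1 to -0.05 and -0.09, Acaca to -0.07 and -0.00080, Agpat1 to 0.03 and -0.03, and Pnpla2 to 0.01 and -0.05 (6 and 5 libraries). Without this library 23 of the 30 genes had a smaller log2 fold change in size, and 4 changed sign. JunD gRNA replicate 3 was also often at the edge, being the lowest or highest library for 18 of 31 genes (58.1%, against 43.4% of all genes tested). It was the lowest for 14 of them.

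**Figure D4:**
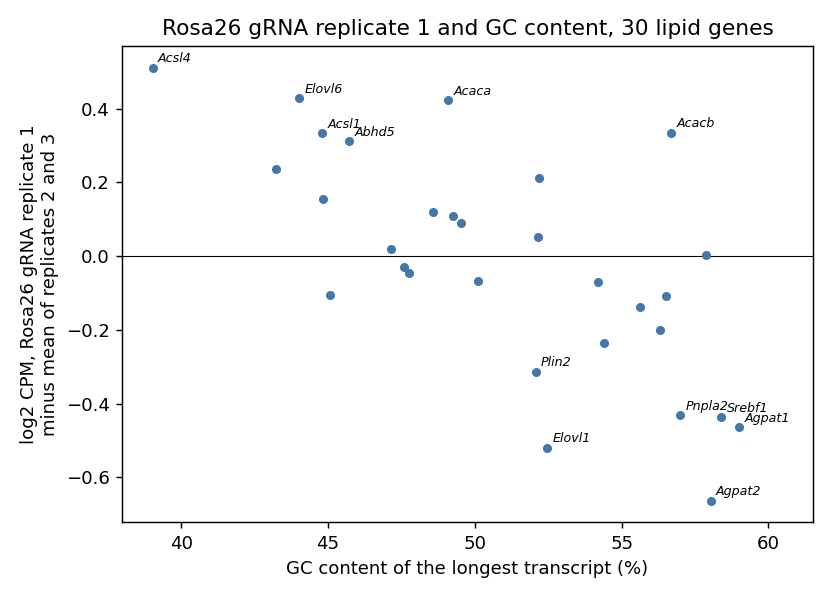
Level in Rosa26 gRNA replicate 1 relative to the mean of the other 2 control libraries (log2 CPM) against GC content of the longest transcript (%), for the 30 genes above 1 CPM, with names beyond 0.3. Acsl4 and Elovl6, at low GC content, lie above 0 and Agpat1, Agpat2, Srebf1 and Pnpla2, at high GC content, lie below. Acacb, at 56.7%, lies above 0 against this direction, and Elovl1 (52.5%) and Plin2 (52.1%) lie below 0.

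Promoter sequence is shown for the 2 called genes and for Fasn, because JunD, as part of AP-1, binds DNA at a short motif and the synthesis genes are known targets of SREBP1. Windows are the 250 bases before a start in RefSeq, 5′ to 3′ on the gene's strand, on GRCm38.p6: chr11:100528001-100528250 (minus) for Acly, chr19:55253119-55253368 (plus) for Acsl5 and chr11:120824548-120824797 (minus) for Fasn. The Acsl5 window lies inside the gene as GENCODE bounds it, before an internal start. Capitals mark matches, on either strand, to the motifs given in the next paragraph.
Acly: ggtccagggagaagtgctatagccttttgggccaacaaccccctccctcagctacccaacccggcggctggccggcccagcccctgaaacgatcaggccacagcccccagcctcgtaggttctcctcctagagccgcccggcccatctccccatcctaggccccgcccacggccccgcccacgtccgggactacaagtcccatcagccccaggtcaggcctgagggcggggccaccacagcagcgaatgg
Acsl5: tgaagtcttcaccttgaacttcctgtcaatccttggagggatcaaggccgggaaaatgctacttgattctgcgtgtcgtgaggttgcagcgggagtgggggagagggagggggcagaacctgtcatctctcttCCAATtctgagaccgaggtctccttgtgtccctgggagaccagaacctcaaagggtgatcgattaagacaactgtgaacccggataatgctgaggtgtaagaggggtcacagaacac
Fasn: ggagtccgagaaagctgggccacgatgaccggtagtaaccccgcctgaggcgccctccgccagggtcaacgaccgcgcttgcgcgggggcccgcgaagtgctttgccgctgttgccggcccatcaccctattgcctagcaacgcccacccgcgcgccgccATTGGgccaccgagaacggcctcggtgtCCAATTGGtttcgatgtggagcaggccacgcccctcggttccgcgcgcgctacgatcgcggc

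The table of promoters held 39 windows for 28 of the 33 genes, and motifs were searched on both strands. Scd1, Scd2, Fads1, Dgat1 and Dgat2 had no window, so nothing below covers them. Some windows lie inside the gene as GENCODE bounds it, among them the only windows of Acaca and Acacb. The AP-1 motif TGANTCA was in 0 of the 39 windows (6.75% of all 32851 windows hold it), and the related CRE motif TGACGTCA was also in 0 (1.55% of all). The sterol element TCACNCCAC was in 1, a window of Acsl1 (1.05% of all) that lies inside the gene. The Acsl1 window at the start of the gene did not hold it. The E-box CACGTG was in 4, of Elovl5, Lipe, Lpin2 and Mgll (6.02% of all). The CCAAT motif was in 16 windows of 15 genes (33.8% of all), Acsl5 and Fasn among them. In Fasn it occurs as CCAATTGG, where matches on the 2 strands overlap, and again as ATTGG. No match says only that these letters are not in this window.

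Other genes of the same pathways, 71 in lists of the same kind, gave 62 that passed the count filter. Of these, 0 were called with 6 libraries, and with 5 libraries 0 rose and 1 fell (1.45% and 1.4% of all genes did). The 1 was Elovl7, an elongase, with 30.2, 25.8 and 27.5 CPM against 22.6, 21.4 and 21.4 CPM. The groups did not overlap, and its log2 fold change was -0.33 ± 0.09 (6 libraries, adjusted p = 0.417) and -0.28 ± 0.07 (5 libraries, adjusted p = 0.0346). In its list of 13 further desaturation and elongation genes, 11 lay below 0 with 5 libraries (median -0.09) and 10 with 6 libraries (median -0.08). The 16 further genes of synthesis and its control split 7 above and 9 below 0 with 5 libraries. Among beta cell markers, 5 of 10 rose and 2 fell with 5 libraries (1.45% and 1.4% of all genes did). With 6 libraries 0 of 10 were called. The summed level of these markers was 44240, 74620 and 78860 CPM with the Rosa26 gRNA, the lowest being replicate 1. With the JunD gRNA the markers summed to 77360, 77190 and 82910 CPM. Their part in the lipid results was not tested.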

How the data were processed

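RNA from Min6 cells was sequenced in 3 libraries per gRNA. The authors deposited unnormalized gene counts, 1 table a library. The submitters' processing notes name TopHat2, featureCounts and mm10; versions, annotation release, strand setting and treatment of multi-mapped reads are not given in the sources used. Symbols were matched by Ensembl identifier without its version (53274 of 53379), and coordinates, exon lengths and GC content came from GENCODE on GRCm38. Groups and replicate numbers came from titles and the gRNA label. No 2 libraries of the same group agreed within sampling noise.

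Counts were tested with edgeR 4.0.16 in R 4.3.3 (TMM, filterByExpr, quasi-likelihood, group as sole term, two-sided, Benjamini-Hochberg adjustment over all genes tested, threshold 0.05). Adjusted p-values in the text are from this test unless another is named. The SE is the size of the log2 fold change over the square root of the F statistic, and is approximate. Alternatives were RLE scaling, DESeq2 1.42.0, limma-voom (limma 3.58.1) with and without sample weights, no or a stricter count filter (1 CPM in 3 libraries), a GC and length offset (splines, 5 degrees of freedom), the replicate number as a block, and each library left out. TMM scaling of CPM, and non-overlap without Rosa26 gRNA replicate 1, were added after the data were seen; the first left the counts of non-overlapping genes as they were. The procedure was also run on simulated counts with no outlying library and no GC trend. That run therefore says nothing of how the tests behave with Rosa26 gRNA replicate 1 included.

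The members and lists, and the fit without Rosa26 gRNA replicate 1, were chosen with earlier results of these data known. Full statistics are given for genes called in either fit, genes whose groups do not overlap, and 11 preset genes (Acly, Acaca, Fasn, Srebf1, Scd1, Scd2, Acsl4, Dgat1, Dgat2, Pnpla2, Plin2); of other lists only called genes are named. The result of 1 called gene in those lists is not reported here.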

Additional observations from a re-analysis of the deposited data

How the results depend on the processing

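Alternatives for the named genes left 489 values with the same direction and side of the threshold, made 12 weaker and 10 stronger, and turned 11. With 6 libraries the count of the 31 lipid genes called stayed at 0 except when 1 library was left out (0 to 2, the 2 without Rosa26 gRNA replicate 1), and the count over all genes was 67 with DESeq2, 293 with sample weights, 86 without the count filter, 17 with the GC and length offset, and 0 to 523 with 1 library left out. With 5 libraries, 1 lipid gene was called under the stricter filter and 0 to 3 with 1 library left out, while all genes gave 820 with sample weights, 870 without the filter and 46 to 672 with 1 library left out. Leaving out either control of the 5 leaves 1, which is assumed to vary like the other group. The median log2 fold change over 6 libraries was -0.023 with the GC and length offset and -0.070 to -0.026 with 1 library left out. On 5 libraries Agpat1 turned to -0.028, Plin2 to -0.0021 and Pnpla2 to -0.050 with the GC and length offset; with 1 library left out Plin2 ran from -0.0090 to 0.039 and Pnpla2 from -0.034 to 0.080. The causes were not tested.

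Replicate numbers showed no clear pairing: the correlations of same-numbered deviations were 0.0555, -0.0393 and 0.0742, and not every library correlated best with its own number. The control deviations were taken from a mean that includes the outlying Rosa26 gRNA replicate 1. The check therefore cannot decide whether the libraries were paired. With the replicate number as a block, 6 libraries still gave 0 lipid genes and 0 genes in all. With the block, 5 libraries gave 1 lipid gene, Dgat2 (adjusted p = 0.0194), with Acly at 0.0767 and Acsl5 at 0.0637, and 832 genes in all; Plin2 was at -0.014. With the block and the GC and length offset together, 6 libraries gave 16 genes in all and a median of -0.023, and on 5 libraries Acsl4 was at 0.0024, Agpat1 at -0.041, Plin2 at -0.035 and Pnpla2 at -0.041. Counts limit what can be said of G0s2, Plin3 and Mgll, and a loss of calls under the block is no sign of a weaker effect.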

Other observations

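Neighbouring lipid pathways were read from 2 further lists. Of 22 genes of cholesterol synthesis and SREBP2 targets, 3 fell and 0 rose with 5 libraries, and 0 were called with 6. Over all genes tested, 1.4% fell and 1.45% rose with 5 libraries. Cyp51, a demethylase of lanosterol, had 299.5, 267.5 and 283 CPM with the Rosa26 gRNA against 253.8, 245.7 and 241.4 CPM with the JunD gRNA, a log2 fold change of -0.15 ± 0.04 with 5 libraries (adjusted p = 0.0444). Msmo1, a sterol methyl oxidase, had 203.8, 193.8 and 195.7 CPM against 167.5, 159.5 and 167.4 CPM (-0.24 ± 0.04, adjusted p = 0.00268). In both genes the groups did not overlap, with the JunD gRNA lower.

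Of 23 genes of fatty acid oxidation, 21 were tested, and 1 rose and 0 fell with 5 libraries (1.45% and 1.4% of all genes did). The 1 was Hadh, a dehydrogenase of the mitochondrial oxidation cycle, with 69.1, 80.3 and 73.3 CPM against 90.2, 92.6 and 97.1 CPM. Its log2 fold change was 0.29 ± 0.05 with 5 libraries (adjusted p = 0.00344) and 0.34 ± 0.08 with 6 (adjusted p = 0.417).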
